A study of Mus musculus with 154 samples.

Results

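Rprl3 and Rpph1 are mouse genes for the RNA of RNase P, and they were taken by symbol from a table of 13289 genes counted in the livers of male mice of 24 strains. Both were in the table. They were chosen by their measured levels, since the Rprl3 counts of these same libraries were known to be near 0 in some strains and high in others, so their levels are given as a description, with no test. The mice were 5 weeks old and fasted overnight, and total liver RNA was sequenced as 50-base reads. The control strain was C57BL/6J (B6, 20 mice). The 8 single chromosome substitution strains (CSSs, 63 mice) were heterozygous for 1 A/J-derived chromosome on a B6 background, and the 15 double CSSs (71 mice) were heterozygous for 2. Chromosomes 3, 6, 14 and 17 came from the dam and chromosomes 4, 5, 8 and 10 from the sire, so that parent and chromosome cannot be told apart. Strain names give the dam first, and A4 and A14 stand for A/J chromosomes 4 and 14. A whole A/J chromosome was substituted, so a difference is mapped to a chromosome and to no gene on it.

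RNase P is the ribonucleoprotein that cuts the 5′ leader from precursor tRNAs. In mammals it has 1 catalytic RNA and a set of protein subunits, most of which are shared with RNase MRP, an enzyme of ribosomal RNA processing with its own RNA, Rmrp. The RNA is made by RNA polymerase III from a short gene whose promoter lies mainly upstream of the transcribed part. The mouse genome holds several sequences related to the RNase P RNA, which carry the names Rprl1, Rprl2 and Rprl3.

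Rpph1 (ENSMUSG00000092837) is annotated in mm10 at chr14:50807449-50807767 on the minus strand, with 319 bases. Rprl3 (ENSMUSG00000088025) lies at chr8:3803069-3803358 on the minus strand, with 290 bases. Both have the ribozyme biotype in GENCODE. Thus Rprl3 lies on neither chromosome 4 nor 14, and Rpph1 lies on chromosome 14. The sequences of both genes are shown because reads have to be told apart by the bases at which they differ. Shown is the part that aligned, bases 1 to 257 of Rpph1 and 1 to 236 of Rprl3. Capitals mark the differing bases, and the longer run of capitals in Rpph1 is a stretch that Rprl3 lacks.
Rpph1: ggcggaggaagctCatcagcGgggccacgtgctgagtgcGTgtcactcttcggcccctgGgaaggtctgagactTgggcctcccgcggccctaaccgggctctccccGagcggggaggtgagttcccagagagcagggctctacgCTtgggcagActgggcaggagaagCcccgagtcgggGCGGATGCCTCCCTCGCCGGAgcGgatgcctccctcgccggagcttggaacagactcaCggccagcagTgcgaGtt
Rprl3: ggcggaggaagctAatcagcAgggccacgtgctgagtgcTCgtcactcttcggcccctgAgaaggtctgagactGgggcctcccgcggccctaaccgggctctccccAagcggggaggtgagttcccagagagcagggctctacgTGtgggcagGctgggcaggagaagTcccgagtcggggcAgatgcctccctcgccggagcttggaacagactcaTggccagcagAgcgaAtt

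In this part, 221 of 236 aligned bases were identical (93.6%). The 15 substitutions, with the Rpph1 base first and positions counted from 1 at the 5′ end of Rpph1, were C14A, G21A, G40T, T41C, G60A, T75G, G108A, C146T, T147G, A155G, C170T, G205A, C240T, T250A and G255A. A stretch of 21 bases that starts at position 182 is present in 2 copies in Rpph1, and Rprl3 holds no exact copy of it. The end of Rprl3 past base 236 did not align with Rpph1. Counted over the longer gene in full, 77.1% of bases were identical.

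**Figure D1:**
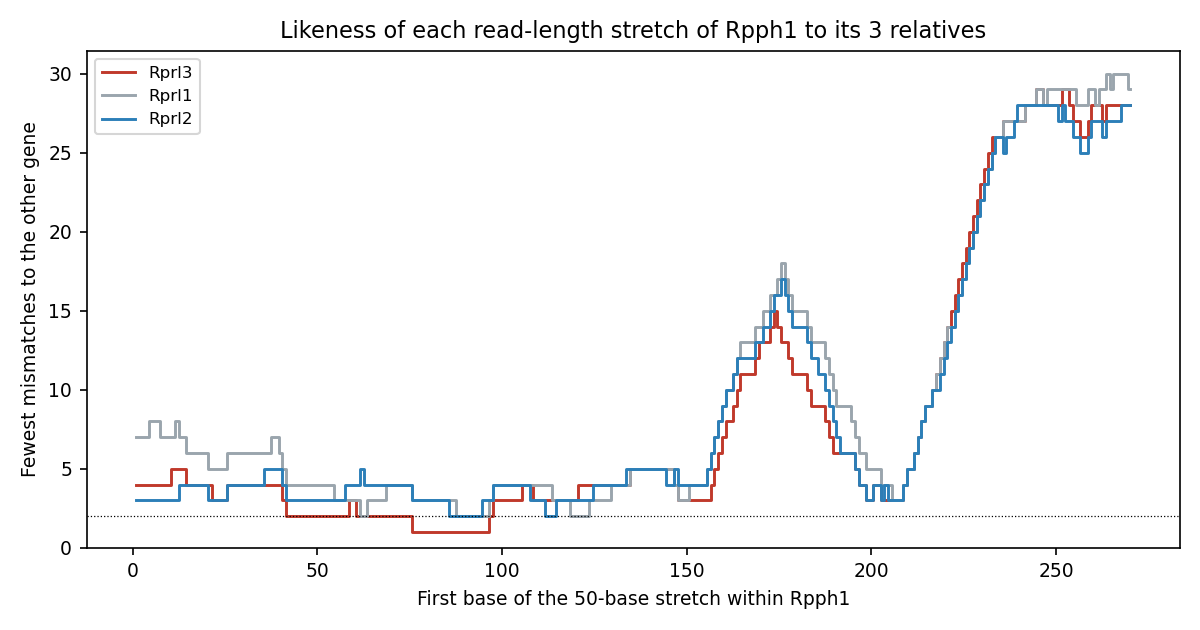
Fewest mismatches (vertical axis, bases) between each 50-base stretch of Rpph1 and any stretch of Rprl3, Rprl1 or Rprl2, by the first base of the stretch (horizontal axis). The Rprl3 line never reaches 0 and lies at 1 for the 21 stretches that start at bases 76 to 96, and the dotted line marks 2 mismatches.

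None of the 270 stretches of Rpph1 with the length of a read was present in Rprl3 without a mismatch. In 21 of them, which start at bases 76 to 96, the difference was 1 base (G108A). With up to 2 mismatches there were 54 such stretches, and with up to 3 there were 98. Rprl1 shared 91.1% and Rprl2 93.2% of the aligned bases with Rpph1, and neither was in the table. Rmrp had at least 24 mismatches in every stretch. A read with an error or a strain difference at those bases could therefore be counted for the other gene, and counts of both are uncertain to that extent.

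The PCR primers that the study lists for Rprl3 show how narrow the difference is. Capitals mark the bases that do not match Rpph1.
Forward primer: actcttcggcccctgAgaag
Reverse primer: gctctctgggaaTtcacctcc
The forward primer matched Rprl3 in full and had 1 mismatch with Rpph1. The reverse primer had 1 mismatch with each gene, so that it does not tell them apart.

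The libraries held 4638701 to 30465477 counted reads (median 16116424). Depth overlapped between the 45 mice with A4 or A14 (5801628 to 29202993) and the 109 others (4638701 to 30465477). The summed level of 5 hepatocyte markers was 50792 to 120067 CPM (the count scaled to the TMM-normalized library size) in the former and 45222 to 144118 CPM in the latter, and the summed levels of 5 marker lists of other liver cell types also overlapped. One mouse listed as male, replicate 3 of the strain with A14 and A4, had 2.94 CPM summed over 4 Y-linked genes. All others were at 227.5 to 432.0 CPM, and the main values of its strain are also given without it.

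Rprl3 was at 405 to 3588 reads in each of the 45 mice of the 8 strains with A4 or A14. In the 109 mice of the other 16 strains it was at 0 to 20 reads. The groups did not overlap. The lowest carrier had 29.5 CPM and the highest other mouse 2.76 CPM, a ratio of 10.7. Of all 13289 genes, Rprl3 was the gene with every carrier of A4 or A14 above every other mouse (0.00753% of the table), and no gene had every carrier below (0%). This separation is what Rprl3 was chosen for, and nothing is read from it. The same single gene was found with raw counts, with plain totals, with DESeq2's size factors and without the mouse with low Y-linked counts.

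**Figure D2:**
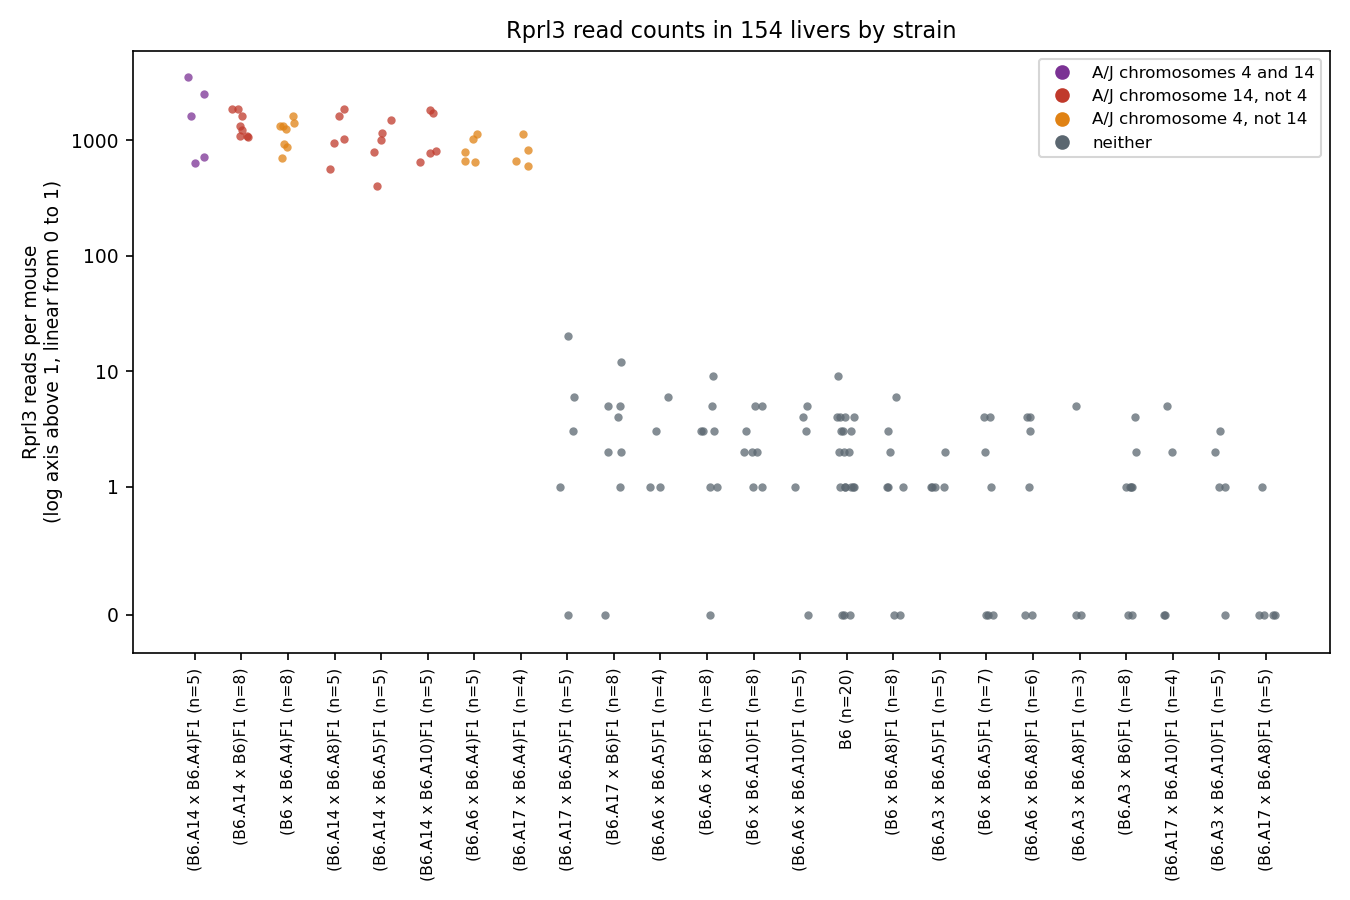
Rprl3 reads per mouse (vertical axis, logarithmic above 1 and linear from 0 to 1) in each of the 24 strains, ordered by mean CPM, with 1 point per mouse and colour for the A/J chromosome carried. The 45 mice with chromosome 4 or 14 lie between 405 and 3588 reads, and the 109 others between 0 and 20.

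In B6, Rprl3 had from 0 to 9 reads with a median of 2, or 0.128 ± 0.106 CPM (SD, n = 20). In (B6 x B6.A4)F1 it had 709 to 1618 reads with a median of 1295, or 80.0 ± 18.5 CPM (SD, n = 8). With A14 alone, in (B6.A14 x B6)F1, it had 1071 to 1892 reads with a median of 1278, or 89.1 ± 28.4 CPM (SD, n = 8). Each of these substitutions alone thus went with a level far above all 20 control mice. On the log2 scale the mean was 9.28 above B6 with A4 and 9.44 above B6 with A14, values that rest on the 0 to 9 reads of each control library.

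In (B6.A14 x B6.A4)F1, which carries both, the 5 mice had 641, 721, 1639, 2515 and 3588 reads. Their levels were 60.1, 67.4, 133.8, 122.7 and 118.7 CPM in the same order, with a mean of 100.5 ± 34.1 CPM (SD, n = 5). They overlapped with both single CSSs. The sum of both single CSS means less B6 was 169.0 CPM. On the log2 scale the mean was 9.61 above B6, where the sum of both single changes was 18.72, a departure of −9.11. Without the mouse with low Y-linked counts, whose own level was 118.7 CPM, the mean was 95.99 CPM, or 9.55 above B6 on the log2 scale, with a departure of −9.18.

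The other 5 strains with A4 or A14 also carried 1 further A/J chromosome. In (B6.A6 x B6.A4)F1 the 5 mice had 654, 666, 797, 1024 and 1138 reads, or 57.2 ± 8.54 CPM (SD). In (B6.A17 x B6.A4)F1 the 4 mice had 606, 660, 834 and 1138 reads, or 52.1 ± 14.96 CPM (SD). Both means were below that of (B6 x B6.A4)F1, by less than 2 of its SDs. In (B6.A14 x B6.A5)F1 the 5 mice had 405, 788, 1009, 1150 and 1515 reads, or 70.6 ± 34.1 CPM (SD). The 5 mice with A14 and A8 were at 53.8, 55.9, 62.2, 86.6 and 117.9 CPM, with a mean of 75.3 ± 27.2 CPM (SD). With A14 and A10, the 5 mice had 655, 772, 812, 1736 and 1830 reads, or 58.9 ± 10.1 CPM (SD). No mouse of these strains came near the level of B6.

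From the highest mean to the lowest, the order was A14 with A4, A14 alone, A4 alone, A14 with A8, A14 with A5, A14 with A10, A4 with A6 and A4 with A17. In all 7 pairs of neighbours in this order the gap was smaller than the larger SD of the pair. This covers neighbours only and does not show that strains farther apart in the order are alike.

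Among the 109 mice with neither chromosome, Rprl3 had 0 reads in 25, 1 to 14 reads in 83 and 20 reads in 1. In 83 of the mice it was at or below 3 reads, the limit that a count of 0 allows, which is 0.0863 to 0.746 CPM depending on the depth of the library. This limit covers counting error only. The means of the 16 strains lay between 0.0162 and 0.704 CPM. The mean of strain means was 72.96 CPM with A4 or A14 and 0.161 CPM with neither, a ratio of 453.

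The mouse with 20 reads was replicate 1 of (B6.A17 x B6.A5)F1, in which the other 4 mice had 0, 1, 3 and 6 reads. The mean of this strain was 0.704 CPM with that mouse and 0.191 CPM without it. The next highest mouse among the 109 had 12 reads and belonged to (B6.A17 x B6)F1.

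Substitution of chromosome 8, where Rprl3 itself lies, did not go with a high level when A4 and A14 were absent. In (B6 x B6.A8)F1 the 8 mice had 0 to 6 reads with a median of 1. In (B6.A17 x B6.A8)F1 the 5 mice had 0, 0, 0, 0 and 1 reads. In (B6.A3 x B6.A8)F1 the 3 mice had 0, 0 and 5 reads, and in (B6.A6 x B6.A8)F1 the 6 mice had 0 to 4 reads with a median of 2. All these were within the range of B6.

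Rpph1, the main RNase P RNA gene, was high in each mouse, at 5899 to 62103 reads and 326.5 to 4246 CPM. It took 0.0317 to 0.319% of the counted reads of a library. In B6 it was at 704.5 to 2295 CPM with a median of 1418 CPM, or 1443 ± 378.7 CPM (SD, n = 20). In (B6 x B6.A4)F1 it was at 1059 to 2135 CPM with a median of 1689 CPM. In (B6.A14 x B6)F1, where 1 copy of Rpph1 itself is from A/J, it was at 825.0 to 2021 CPM with a median of 1343 CPM. In (B6.A14 x B6.A4)F1 the 5 mice were at 790.7, 918.5, 1722, 1789 and 1859 CPM, with a mean of 1416 CPM that was 1305 CPM without the mouse with low Y-linked counts. All these ranges overlapped with B6.

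**Figure D3:**
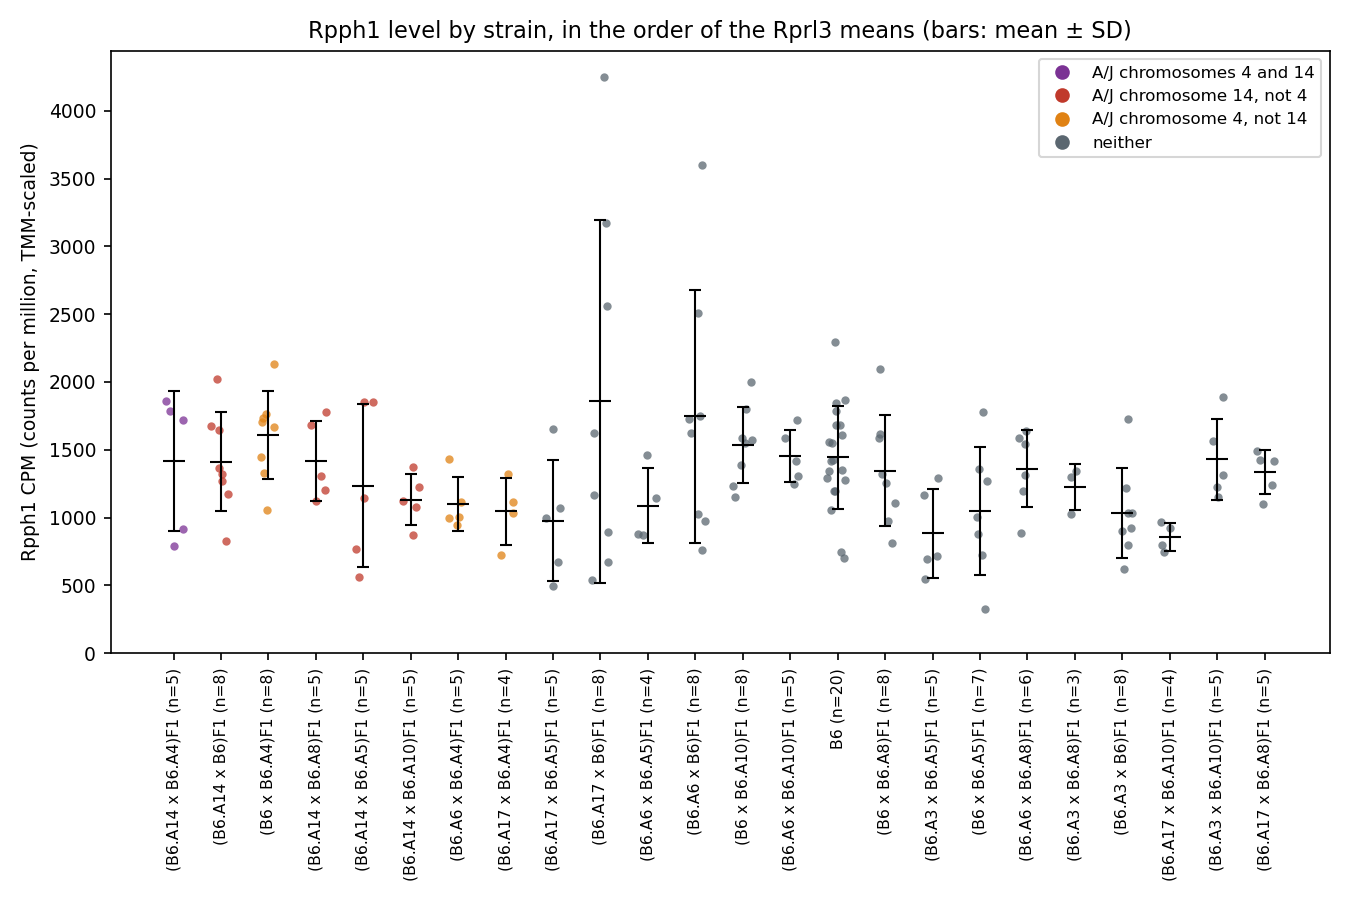
Rpph1 level in CPM (vertical axis, from 0) per mouse in each of the 24 strains, in the order of the Rprl3 means, with 1 point per mouse and black bars for mean ± SD. The strains with chromosome 4 or 14 stand among the others, and the highest mice belong to (B6.A17 x B6)F1 and (B6.A6 x B6)F1.

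Strain means of Rpph1 ranged from 857.6 ± 104.1 CPM (SD, n = 4) with A17 and A10 to 1858 ± 1338 CPM (SD, n = 8) with A17 alone. The latter strain spanned 537.0 to 4246 CPM. In all 23 pairs of neighbours in the order of means the gap was smaller than the larger SD. Neighbours in a sorted order lie close by construction, so this does not show that the strains are alike. As an example of strains farther apart, (B6.A17 x B6.A10)F1 at 746.0 to 967.9 CPM (n = 4) did not overlap with (B6 x B6.A10)F1 at 1150 to 1997 CPM (n = 8). It did overlap with (B6.A17 x B6)F1. This pair was picked after the values were seen and pairs without overlap were not counted, so no difference is read from it. The mean of strain means was 1296 CPM with A4 or A14 and 1289 CPM with neither. On the log2 scale of the model, the main effect on Rpph1 was 0.18 (SE 0.20) for A4 and −0.02 (SE 0.20) for A14, and the departure of the double CSS from their sum was −0.05 (SE 0.35), or −0.26 (SE 0.35) without that mouse. The main effect largest in size was −0.43 (SE 0.205) for A5, and the interaction largest in size was −0.88 (SE 0.35) for A17:A10.

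Per length, Rpph1 was at 4061 and Rprl3 at 251.6 CPM per 1000 bases in the strains with A4 or A14, a ratio of 16.1. The median of 19626 Rpph1 reads in a gene of 319 bases is far above the number of positions at which a read can start in it. The study states that duplicate reads were removed, and how this was done for such genes was not tested.

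The summed level of both RNAs followed Rpph1. The mean of strain means was 1369 CPM with A4 or A14 and 1289 CPM with neither, and strain means ranged from 1099 to 1686 CPM in the former and from 857.6 to 1858 CPM in the latter. In all 23 pairs of neighbours the gap was smaller than the larger SD, which again covers only neighbours in the order. A loss of Rpph1 that balances the gain of Rprl3 would be smaller than this spread, so neither a constant nor a raised sum can be read from these mice.

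Rprl3 made up 4.09 to 7.06% of the reads of both genes in the 45 carriers and at most 0.166% in the other mice. In (B6.A14 x B6.A4)F1 the share was 6.0, 6.65, 6.84, 6.96 and 7.06% in the 5 mice, with a mean of 6.70 ± 0.42% (SD). Without the mouse with low Y-linked counts, which had the 6.0%, the mean was 6.88 ± 0.18% (SD, n = 4). With A14 alone it was 5.06 to 6.82% with a median of 5.76%, and a mean of 5.87 ± 0.64% (SD, n = 8). With A4 alone it was 4.09 to 5.56% with a median of 4.62%, and a mean of 4.74 ± 0.54% (SD, n = 8). Every mouse with both chromosomes thus had a larger share than every mouse with A4 alone, and overlapped with A14 alone, also without that mouse. Both single shares summed to 10.6%.

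**Figure D4:**
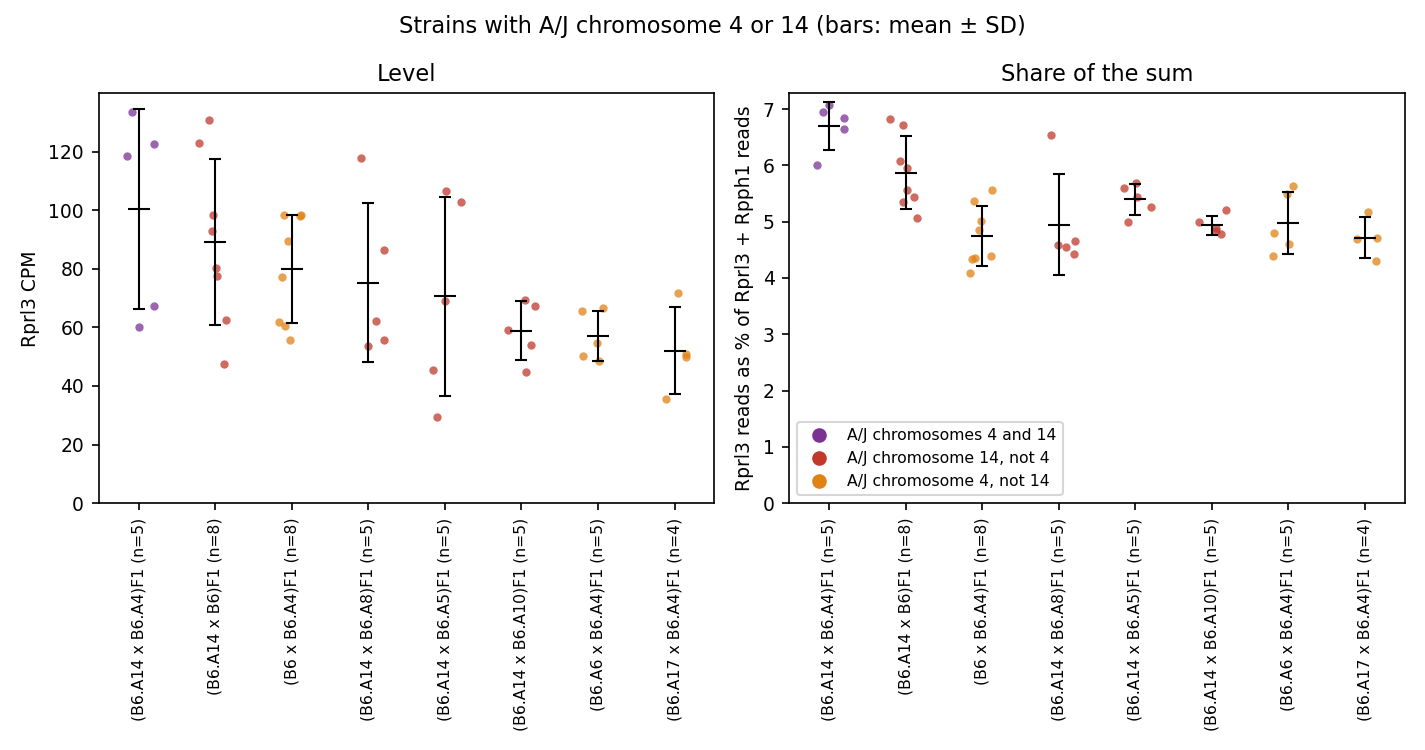
Rprl3 level in CPM (left, vertical axis from 0) and Rprl3 reads as a percentage of Rprl3 and Rpph1 reads (right, vertical axis from 0) per mouse in the 8 strains with chromosome 4 or 14, with black bars for mean ± SD. The level spreads from 29.5 to 133.8 CPM, while the share stays between 4.09 and 7.06%.

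In the other 5 carrier strains the mean share was 5.40 ± 0.28% for A14 with A5, 4.98 ± 0.55% for A4 with A6, 4.95 ± 0.89% for A14 with A8, 4.94 ± 0.17% for A14 with A10 and 4.72 ± 0.36% for A4 with A17 (SD, n = 4 or 5). In 6 of 7 pairs of neighbours the gap in mean share was smaller than the larger SD. The exception was the gap of 0.83 percentage points between (B6.A14 x B6.A4)F1 and (B6.A14 x B6)F1, against an SD of 0.64, and without the mouse with low Y-linked counts the gap was 1.01.

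Within carriers, Rprl3 was high in the mice in which Rpph1 was high. Across the 45 mice Pearson's r of the log2 CPM values was 0.90 and Spearman's rho 0.89, and r was 0.87 without the 2 mice farthest from the median of Rpph1. Without the mouse with low Y-linked counts r was 0.90 and rho 0.88. Within (B6.A14 x B6)F1 r was 0.95 and rho 0.95 (n = 8), and r was 0.86 without the 2 mice farthest from the median of Rpph1. Within (B6 x B6.A4)F1 r was 0.87 and rho 0.69 (n = 8), and r was 0.72 without the 2 farthest mice. The points share a library, its scaling and its short RNA content, and reads of one gene that are counted for the other would move both, so these values are a description.

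**Figure D5:**
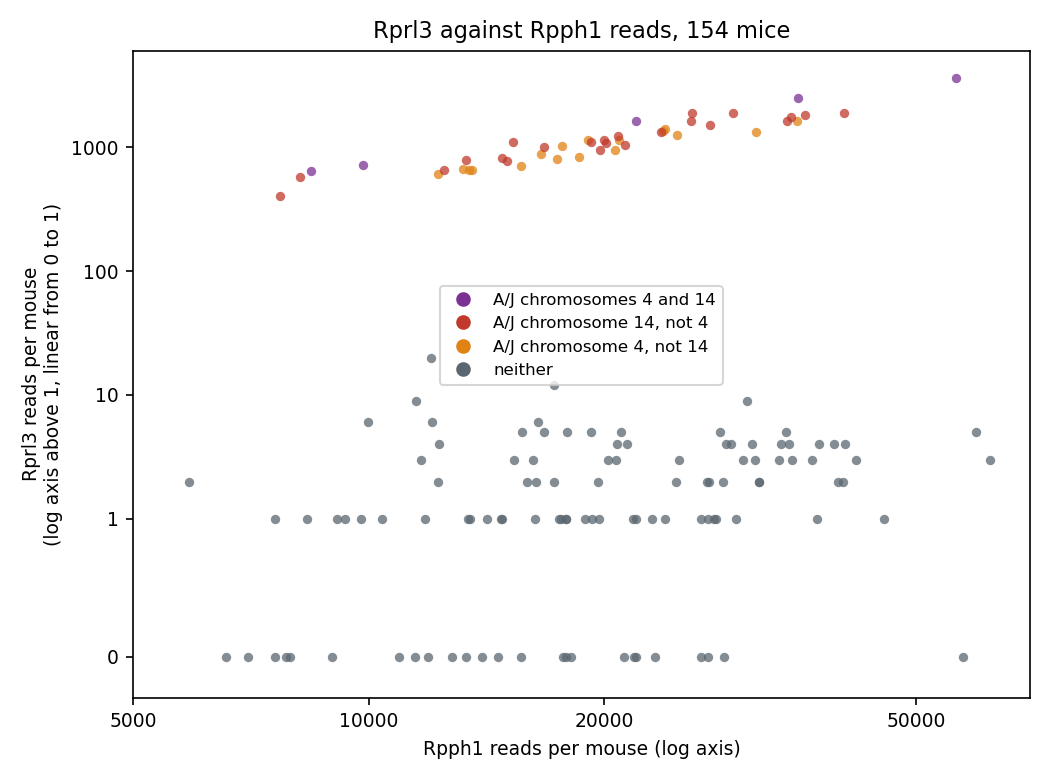
Rprl3 reads (vertical axis, logarithmic above 1 and linear from 0 to 1) against Rpph1 reads (horizontal axis, logarithmic) in all mice, with 1 point per mouse and colour for the A/J chromosome carried. The 45 carriers form a band that rises with Rpph1, from 405 to 3588 Rprl3 reads, and the 109 others stay at or below 20 reads.

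None of the genes nearest to each member separated carriers of A4 or A14 from the other mice. For Rprl3 these were Clec4g, a C-type lectin of liver endothelium at a distance of 82418 bases, and Trappc5, Stxbp2, Gm7389, Evi5l and Map2k7. Over their main effects 9 of 48 tests passed, beside 11.1% over all genes. Clec4g, the nearest of them, was at 43.4 ± 9.03 CPM in B6 (SD, n = 20), 50.7 ± 7.46 CPM with A4, 67.5 ± 9.10 CPM with A14 and 51.3 ± 7.66 CPM with both. In edgeR's quasi-likelihood test it rose by 0.66 on the log2 scale with A14 (SE 0.09, adjusted p = 6.0e-08), and it rose with A4, A6, A8 and A17 by 0.27, 0.26, 0.54 and 0.38. The rises with A14 and A8 also passed with 10 surrogate variables (covariates estimated from the data for variation that the labels do not give) in place of 5, and those with A4, A6 and A17 did not (adjusted p = 0.371, 0.394 and 0.112). Its A14:A4 interaction was −0.60 (SE 0.16, adjusted p = 0.0182), which was lost with 10 surrogate variables (adjusted p = 0.152). The highest strain mean of Clec4g was 1.67 times its lowest, against an on and off pattern for Rprl3. The summed level of 3 endothelium markers, of which Clec4g is 1, was 142.3 to 177.5 CPM in B6 and 159.3 to 203.2 CPM with A14. This sum includes the rise of Clec4g itself. The others were Pecam1, with a mean of 28.2 CPM in B6 and 28.7 CPM with A14, and Stab2, with 90.2 and 92.1 CPM. The part of endothelial content in the level of Clec4g was not tested. Map2k7, a kinase that activates JNK, fell with A4 by 0.18 (SE 0.06, adjusted p = 0.0259), with A6 by 0.22 and with A17 by 0.26. None of these 3 calls was made with 10 surrogate variables (adjusted p = 0.476 for A4). Stxbp2, which takes part in vesicle fusion, fell with A8 by 0.19 (SE 0.07, adjusted p = 0.0193), also lost with 10 surrogate variables (adjusted p = 0.322).

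The genes of the table nearest to Rpph1 were Ttc5, Naa30, Ap5m1, Parp2, Tep1 and Gm26782. Of these, Naa30 and Ap5m1 lie 1616418 and 1713215 bases away. For these genes 4 of 48 main effect tests passed, beside 11.1% over all genes. Parp2, a DNA repair enzyme, starts 74 bases from Rpph1. It was at 6.74 ± 1.54 CPM in B6 (SD, n = 20), 7.04 ± 0.87 CPM with A4 and 7.17 ± 0.98 CPM with A14, with log2 fold changes of 0.07 (SE 0.09) and 0.00 (SE 0.09) that did not pass the test. Farther off on the same chromosome, Ap5m1, a subunit of an adaptor complex, rose with A14 by 0.27 (SE 0.06, adjusted p = 0.000131) and with A8 by 0.20. Gm26782, an antisense transcript whose start lies 62557 bases away, fell with A14 by 0.40 (SE 0.10, adjusted p = 0.00149). Both calls with A14 were also made with 10 surrogate variables, while the call of Ap5m1 with A8 was lost (adjusted p = 0.238). Naa30, a subunit of an N-terminal acetyltransferase, fell with A10 by 0.18 (SE 0.05, adjusted p = 0.0193). In GENCODE vM21 an exon of Ccnb1ip1 on the same strand covers 233 bases of Rpph1. Ccnb1ip1 was not in the table, and whether the annotation used for counting held this exon was not tested.

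The proteins of RNase P and the machinery that makes its RNA come from lists of 61 genes, of which 55 were in the table. In the joint test of all strains, 26 of the 55 passed at a false discovery rate (FDR) of 0.05, beside 51.4% of all genes. Over the 8 main effects 58 of 440 tests passed (13.2%), 31 higher and 27 lower, beside 11.1% over all genes. Over the 15 interactions 52 of 825 passed (6.30%), 23 higher and 29 lower, beside 5.96% over all genes. These counts fell to 14, 15 and 7 with 10 surrogate variables. Without the mouse with low Y-linked counts they were 26, 55 and 50. Levels of hepatocyte markers were lower with 2 of the substitutions named below, with overlap. Their sum was 85662 to 144118 CPM with a median of 102991 CPM in B6, 50792 to 111994 CPM with a median of 77246 CPM with A14, and 45222 to 95610 CPM with a median of 67481 CPM with A8. With A4 it was 69038 to 120067 CPM with a median of 97749 CPM. Most of the sum was Alb, at a mean of 82617 CPM in B6. The part of these marker levels in the changes of listed genes was not tested.

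Of the protein subunits of RNase P and RNase MRP, 10 of 11 were in the table, at 2.44 to 14.2 CPM in B6. In the joint test 3 passed (Pop1, Pop5 and Rpp25l), beside 51.4% of all genes. Over the main effects 3 of 80 tests passed (3.75%), 1 higher and 2 lower, beside 11.1% over all genes. With A4 and with A14 singly, 1 of the 10 passed, where 13.5% and 22.5% of all genes did. Pop1, the largest subunit, fell with A4 by 0.39 on the log2 scale (SE 0.09, adjusted p = 0.00155) and with A14 by 0.23 (SE 0.09, adjusted p = 0.0455). Its levels were 6.63 ± 1.42 CPM in B6 (SD, n = 20), 5.73 ± 0.71 CPM with A4, 6.04 ± 0.86 CPM with A14 and 5.55 ± 0.31 CPM with both, which overlapped. Neither of its calls held without surrogate variables or in the genes with at least 15 counts in 75% of the mice. Pop5 rose with A5 by 0.21 (SE 0.07, adjusted p = 0.0292), a call that was not made without surrogate variables.

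Over the interactions of these subunits 4 of 150 tests passed (2.67%), 2 higher and 2 lower, beside 5.96% over all genes. The subunits' main effects had a median log2 fold change of 0.02 with A4 and 0.02 with A14, beside −0.00014 and −0.0054 over all genes, and each strain mean of a subunit differed by at most 1.56-fold between the highest and the lowest strain.

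The mitochondrial RNase P of mammals has no RNA and consists of Trmt10c, Hsd17b10 and Prorp, the nuclease. All 3 were in the table. With A8, where 29.6% of all genes passed, Prorp fell by 0.33 (SE 0.07, adjusted p = 9.1e-05) and Trmt10c rose by 0.24 (SE 0.08, adjusted p = 0.0192). With 10 surrogate variables the call of Prorp was made (adjusted p = 0.00231) and that of Trmt10c was not (adjusted p = 0.116). Neither main effect of A4 nor of A14 passed for any of the 3. Of the other genes of tRNA end processing, Elac2, which cuts the 3′ trailer, fell with A14 by 0.19 (SE 0.06, adjusted p = 0.0093) and with A8 by 0.31 (SE 0.06, adjusted p = 5.0e-05). Neither of its calls was made with 10 surrogate variables (adjusted p = 0.237 and 0.0565). Ssb, the La protein that binds the ends of RNA polymerase III transcripts, fell with A4 by 0.17 (SE 0.05, adjusted p = 0.0191), also with 10 surrogate variables (adjusted p = 0.0278) but not without any.

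Among 19 transcription factors of RNA polymerase III genes, 20 of 152 main effect tests passed (13.2%), 9 higher and 11 lower, beside 11.1% over all genes. With A4, 3 rose and 1 fell, and with A14, 2 rose and 3 fell, where 13.5% and 22.5% of all genes passed. Pou2f1 (Oct-1), an activator of upstream promoters of such genes, rose with A4 by 0.59 (SE 0.10, adjusted p = 2.0e-05) and with A14 by 0.47 (SE 0.10, adjusted p = 0.000228). Its level was 15.9 ± 3.76 CPM in B6 (SD, n = 20), 22.97 ± 4.09 CPM with A4, 22.6 ± 4.80 CPM with A14 and 21.2 ± 6.66 CPM with both. B6 had the lowest mean of all 24 strains. Over all mice with A4 or A14 the mean was 20.6 CPM, and over all mice with neither it was 18.1 CPM. The A14:A4 interaction, which passed for 4.63% of all genes, was −0.82 (SE 0.18, adjusted p = 0.00299). With 10 surrogate variables the adjusted p was 0.0525 for A4, 0.0264 for A14 and 0.0852 for the interaction. Pou2f1 also rose with A10 by 0.32 and with A6 by 0.30, and neither call was made with 10 surrogate variables (adjusted p = 0.0607 and 0.193).

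Snapc3, a subunit of the complex that binds upstream promoters, lies on chromosome 4 and rose with A4 by 0.20 (SE 0.06, adjusted p = 0.00565). Maf1, a repressor of RNA polymerase III, rose with A4 by 0.18 (SE 0.06, adjusted p = 0.0482), a call lost without the mouse with low Y-linked counts (adjusted p = 0.0544). Bdp1, a subunit of the initiation factor TFIIIB, fell with A14 by 0.26 (SE 0.06, adjusted p = 0.000685), and its A14:A4 interaction was 0.32 (SE 0.10, adjusted p = 0.0498), which was 0.0505 without that mouse. The other calls were in subunits of TFIIIC, the factor that binds promoters inside tRNA genes. Gtf3c5 fell with A4 by 0.37 (SE 0.11, adjusted p = 0.0142), Gtf3c3 and Gtf3c4 fell with A14 by 0.14 and 0.17, and Gtf3c6 rose with A14 by 0.25. None of these calls from Snapc3 to Gtf3c6 was made with 10 surrogate variables, with adjusted p of 0.111 for Snapc3 and 0.124 for Bdp1 with A14.

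Among 13 subunits of RNA polymerase III, 11 of 104 main effect tests passed (10.6%), 3 higher and 8 lower, beside 11.1% over all genes. With A4, 1 fell, and with A14, 2 rose and 3 fell, where 13.5% and 22.5% of all genes passed. Polr3a, the largest subunit, lies on chromosome 14 and fell with A14 by 0.31 (SE 0.06, adjusted p = 2.3e-05). Polr3k rose with A8 by 0.41 (SE 0.08, adjusted p = 7.2e-05) and with A14 by 0.30 (SE 0.08, adjusted p = 0.00312). Polr3c fell with A4 by 0.21 (SE 0.07, adjusted p = 0.0468) and with A14 by 0.20 (SE 0.07, adjusted p = 0.042), Polr3b fell with A14 by 0.22 and Polr3f rose with A14 by 0.20. Of these calls, that of Polr3k with A8 was made with 10 surrogate variables (adjusted p = 0.0457). The others were not, with adjusted p of 0.0816 for Polr3a and 0.211 for Polr3k with A14. Polr1d fell with A5 by 0.19 and Crcp fell with A3 by 0.26. Both of these calls were also made with 10 surrogate variables (adjusted p = 0.00197 and 0.031), and that of Crcp was not made without any.

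Other short structured RNAs moved with several substitutions, without an on and off pattern. Of 11 listed, 6 were in the table, and 15 of 48 main effect tests passed (31.2%), all higher, beside 11.1% over all genes. Their median log2 fold change over the main effects was 0.35, against −0.0011 over all genes. All 8 main effects share the same 20 B6 mice as reference, so these calls are not independent. Over the interactions 7 of 90 tests passed (7.78%), all lower, beside 5.96% over all genes. The median over the interactions was −0.51, against 0.0051 over all genes. Rmrp was at 754.6 ± 252.0 CPM in B6 (SD, n = 20), 847.8 ± 135.0 CPM with A4, 1028 ± 193 CPM with A14 and 726.0 ± 137.8 CPM with both. It rose with A14 by 0.48 (SE 0.14, adjusted p = 0.00548) and with A8 by 0.59 (SE 0.15, adjusted p = 0.000926). Its A14:A4 interaction was −0.70 with an adjusted p of 0.0675 in edgeR's test, and −0.87 with an adjusted p of 0.0334 without the mouse with low Y-linked counts. Rn7sk, which binds the elongation factor P-TEFb, rose with A14 by 0.52 (SE 0.14, adjusted p = 0.00284) and with A8 by 0.54 (SE 0.15, adjusted p = 0.00285). Terc, the RNA of telomerase and a product of RNA polymerase II, rose with A14 by 0.60 (SE 0.16, adjusted p = 0.00297) and with A8 by 0.58. Rny3 and Rny1 are Y RNAs, which bind the Ro60 protein. Rny3 was called with both A4, by 1.03 (SE 0.29, adjusted p = 0.0118), and A14, by 0.88 (SE 0.29, adjusted p = 0.0215). Its levels were 9.39 ± 8.80 CPM in B6 (SD, n = 20), 16.1 ± 8.38 CPM with A4, 16.3 ± 5.27 CPM with A14 and 14.5 ± 5.29 CPM with both. With A4, Rny1 rose by 0.93 (SE 0.30, adjusted p = 0.0262) and Vaultrc5, an RNA of the vault particle, by 0.83 (SE 0.29, adjusted p = 0.0445). Alb, the main secreted protein of hepatocytes, was at 82617 CPM in B6, 74383 CPM with A4, 62174 CPM with A14 and 52009 CPM with A8, and Cps1, of the urea cycle, at 9690, 8687, 6550 and 4764 CPM in the same order. The other hepatocyte markers differed less. In that order Apoa1 was at 7729, 6907, 7172 and 6055 CPM and Ttr at 2877, 2792, 2751 and 2613 CPM. Serpina1a was at 693.5, 688.6, 598.5 and 579.2 CPM. Whether the levels of these markers bear on the short RNAs was not tested. The highest strain mean of these RNAs was 1.73 to 3.59 times the lowest. With 10 surrogate variables 2 of their 15 main effect calls were made, those of Rny1 and Rny3 with A10, and none with A4, A14 or A8. None of their 7 interaction calls was made.

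The genes whose strain means were most like those of Rprl3, by Spearman's rho over 24 strains, were Rap1gap (0.74), Naip1 (0.73), Lyrm4 (0.71), Acnat2 (0.70) and Cyp2b10 (0.68). Rap1gap ranged from 1.75 to 6.70 CPM in mice with A4 or A14 and from 1.36 to 6.22 CPM in the others. Each of the 5 overlapped between carriers and other mice in this way. They were picked as the highest of the whole table, and over all mice their rho was 0.26 to 0.32. The Rprl3 means of 16 strains rest on 0 to 20 reads per mouse, so the order of those strains carries counting error. The genes most like Rpph1 were Gm25395 (0.82), a small Cajal body RNA, Gm26448 (0.73), a small nucleolar RNA, Nup160 (0.71), Zscan21 (0.69) and Brpf3 (0.68). Gm25395 was also first over all mice, with a rho of 0.82. These values are descriptions over points that share libraries and depth.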

How the data were processed

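Liver RNA of male mice was sequenced with a stranded total RNA kit. Per the labels and the study's methods, the authors aligned reads to mm10 with TopHat2, aligned the reads left over to an individualized A/J genome, removed duplicates and made the deposited counts per gene with HTSeq. Each library is 1 mouse. Flow cells could not be used, since the sources used here do not assign libraries to them. Samples were grouped by the strain label.

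From the counts, CPM were computed with TMM-normalized library sizes (edgeR 4.0.16). The model had 8 main effects, 15 interactions and 5 surrogate variables (sva 3.50.0), and was fitted to all 13289 genes with edgeR's quasi-likelihood test. Benjamini-Hochberg adjustment was made for each effect, separately for genes on and off the substituted chromosomes, with a threshold of 0.05. The SE is the absolute log2 fold change divided by the square root of F. The joint test covered all effects. The code was tested on simulated data. Strains are described by mean ± SD. The members were part of the fit, which gave the effects and SEs printed for Rpph1, and no p-value is read for them.

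Names and positions were taken from GENCODE vM21 (mm10), which named 13242 of the genes, and sequences from its transcripts. Sequences were aligned with Biopython 1.88. The members and lists were chosen with earlier results of these data known. Genes were named as the listed genes and the 3 genes in the table on each side of a member, with values for those that passed with A4 or A14 and for some other effects, the latter chosen after their values were seen, and as the 5 genes most like each member. Alternatives were other scalings, 0 or 10 surrogate variables, a filter of 15 counts in 75% of the mice, DESeq2 1.42.0 and leaving out single mice. Added after seeing the data were the separation under other scalings or without 1 mouse, the other values without that mouse, the settings for the neighbouring genes, and the local alignment.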

Additional observations from a re-analysis of the deposited data

Results flagged for a closer look

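In groups of 4 to 10 mice, 82 sets of member values were examined for a mouse that stands apart by Dixon's criterion, and 7 were found. Chance gives about 1 in 20 for independent sets of normal values. These sets are not independent, since the sum follows Rpph1, and low read counts are not normal. The 7 can therefore not be set against that rate. Strains in which no mouse had more than 3 Rprl3 reads were not examined for Rprl3. In (B6.A14 x B6.A8)F1, replicate 1 had an Rprl3 share of 6.54%, above the next mouse at 4.65%, on 8163 Rpph1 reads. The other 6 rest on few Rprl3 reads. Replicate 1 of (B6.A17 x B6.A5)F1 was at 2.76 CPM with 20 reads, replicate 5 of (B6 x B6.A10)F1 at 0.493 CPM with 5 reads and replicate 1 of (B6.A6 x B6.A5)F1 at 0.691 CPM with 6 reads. The Rprl3 share was 0.0325% in replicate 1 of (B6 x B6.A5)F1, 0.0364% in replicate 1 of (B6 x B6.A8)F1 and 0.0784% in replicate 7 of (B6.A6 x B6)F1, with 4, 6 and 9 reads.

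For the listed genes below, the effect of 1 chromosome differed with the presence of another, by edgeR's quasi-likelihood test of the interaction (log2 scale). Covered are only the RNase P and RNase MRP proteins, the mitochondrial RNase P and the short structured RNAs. In these lists 4 of 150, 5 of 45 and 7 of 90 interaction tests passed, beside 5.96% over all genes. The study's own tests found more interactions for A14:A8 than for any other cross. Called interactions of the other lists are not printed here. The A14:A8 interaction was 0.48 for Pop7, 0.52 for Rpp25l, 0.35 for Prorp, −0.63 for Trmt10c, −0.78 for Rmrp, −0.93 for Rn7sk and −0.96 for Terc. The A6:A8 interaction was −0.34 for Rpp14, 0.30 for Prorp, −0.59 for Trmt10c, −0.75 for Rmrp, −0.65 for Rn7sk and −0.83 for Terc. The A17:A8 interaction was 0.41 for Prorp, A17:A4 was −0.61 for Rpp40 and A14:A5 was −0.91 for Rmrp. With 10 surrogate variables the A14:A8 interactions of Rpp25l, Prorp and Trmt10c and the A6:A8 interaction of Trmt10c still passed, and the other interactions named here did not.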

How the results depend on the processing

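The strain means of Rprl3, Rpph1 and their sum moved by less than 1 SD under DESeq2's size factors and plain totals, and the Rprl3 share did so with counts pooled over mice. Each of 65 mice of the 14 double CSSs with 3 to 5 mice was also left out, which was not run for the other strains. Leaving out 1 mouse cannot move a mean by 1 SD, so the SD sets no test here. The Rprl3 mean of (B6.A14 x B6.A5)F1, for example, then ranged from 61.7 to 80.9 CPM. With 10 surrogate variables, 14 listed genes passed the joint test in place of 26, 15 main effect tests in place of 58 and 7 interaction tests in place of 52, and without surrogate variables 79 interaction tests passed. The cause was not tested. Leaving out each of 65 mice in turn gave 25 to 28 genes in the joint test and 49 to 53 interaction calls, where only the interaction of the mouse's own strain was refitted. Main effects were run this way only for the mouse with low Y-linked counts, with 55 calls. All fits without a mouse kept the surrogate variables and the dispersion trend (the spread expected at a gene's level) of the fit of all mice. How the calls move when these are also estimated without the mouse was not tested. Of the 5 genes most like Rpph1, 3 stayed among the 5 highest by Pearson's r and 2 over all mice, and for Rprl3 these were 1 and 0. Identity was 77.1% over the longer gene, 93.6% in the local alignment and 0% as exact shared windows of 50 bases. Rprl3 below 0.746 CPM could not be shown in the shallowest library. No paired analysis was possible because replicate numbers only name mice.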
